A study of Oryza sativa Japonica Group with 4 samples.

Results

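Of 17905 rice genes with a microarray probe set paired with them alone, 43 were heat shock protein (HSP) or heat shock factor (HSF) genes. They were chosen by name: a symbol or synonym that starts with HSP and a number, HSF and a number, or HSFA, HSFB or HSFC. The gene reference held 49 such genes, and 6 of them, HSP16.9C, HSP18.9, HSP19.0, HSFA6A, HSFB4C and HSFC2B, had no probe set paired with them alone and were not analysed here. The measured genes were 19 small HSPs, 3 HSP90 genes, 1 HSP100 gene, 12 HSFs of class A, 5 of class B and 3 of class C. They had 64 probe sets, and the brightest of each gene, by its mean over the arrays, was used; 29 of the genes had only 1.

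RNA of whole panicles of Oryza sativa Japonica Group, the flowering and later grain-bearing branches of rice, was hybridised to 4 Affymetrix arrays, 1 for each group. At meiosis, from its early to its late stages, these were the pola mutant and wild type (WT). At ripening, 10 to 15 days after pollination, they were POLA RNAi panicles of generation T2, called a line in the design text and lines in the sample labels (RNAi line hereafter), and WT. Each array carried RNA pooled from 20 panicles of 10 plants. All material was greenhouse-grown, and the labels name no heat treatment. The sources used here name neither the allele of the mutant, the promoter of the RNAi construct, the number of RNAi lines, the cultivar nor the temperature. One label of the RNAi sample speaks of wild lines, but the other 3 (genotype, title and source) name RNAi and were followed. The POLA gene itself is not named in the tables, so its signal gives no check of the labels. With 1 array per group no difference has a replicate check, no test was made and no p-value is given.

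Heat shock proteins are molecular chaperones. Small HSPs bind unfolding proteins and hold them in a soluble state, HSP100 proteins such as HSP101 pull aggregated proteins apart, and HSP90 proteins help signalling proteins and regulators to reach their active form. Heat shock factors bind the promoters of these genes: class A factors carry an activation domain, class B factors lack it and often repress, and the role of class C, which is larger in grasses, is less well defined. In plants many small HSPs are made in developing seeds and pollen without any heat, as well as in heated leaves.

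Signals are linear MAS5 values, and the 2% trimmed mean lay between 499.95 and 499.96 on all 4 arrays. The median signal was 51.8 in mutant and 124 in WT panicles at meiosis, and 65.7 in RNAi and 163 in WT panicles at ripening, so dim genes read lower on the mutant and RNAi arrays. The GAPDH signal of the 3' end over that of the 5' end, a sign of RNA integrity, was 4.22 in mutant and 2.04 in WT panicles at meiosis, and 3.32 in RNAi and 2.01 in WT panicles at ripening. The same ratio for actin was 8.06 in mutant and 5.89 in WT panicles, and 6.10 in RNAi and 6.22 in WT panicles, and for cyclophilin 1.86 in mutant and 1.42 in WT panicles, and 1.27 in RNAi and 1.90 in WT panicles, so the RNAi array was higher than its WT only for GAPDH among the 3. As a check of the labelled stages, 6 endosperm genes summed to 265549 in RNAi and 201156 in WT panicles at ripening, against 154 in mutant and 258 in WT panicles at meiosis. For 4 genes of the tapetum, which nourishes the pollen, the sums were 149 in RNAi and 342 in WT panicles at ripening, against 86979 in mutant and 59662 in WT panicles at meiosis. The 4 meiocyte genes separated the stages less, with sums of 1433 in RNAi and 1511 in WT panicles at ripening, against 3026 in mutant and 3837 in WT panicles at meiosis. Of these, ZEP1 was higher at ripening, and PAIR2 overlapped between the stages. Fewer cells of a type and less RNA per cell cannot be told apart in such whole-panicle samples.

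Differences are log2 ratios of signals, each increased by 23.4, a pseudocount at the 25th percentile of the arrays' values. A gene was kept in a comparison when its brighter signal was no lower than the median signal on the same array, and log2 ratios from 1 upwards or from -1 downwards, 2-fold differences, were counted. Because the arrays differ in their dim signals, each ratio was also taken after raising every signal below a common floor of 163, the highest array median, to that floor. A fold marked "at least" uses the floor. Signals of different genes come from different probes and are not set against each other here.

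**Figure D1:**
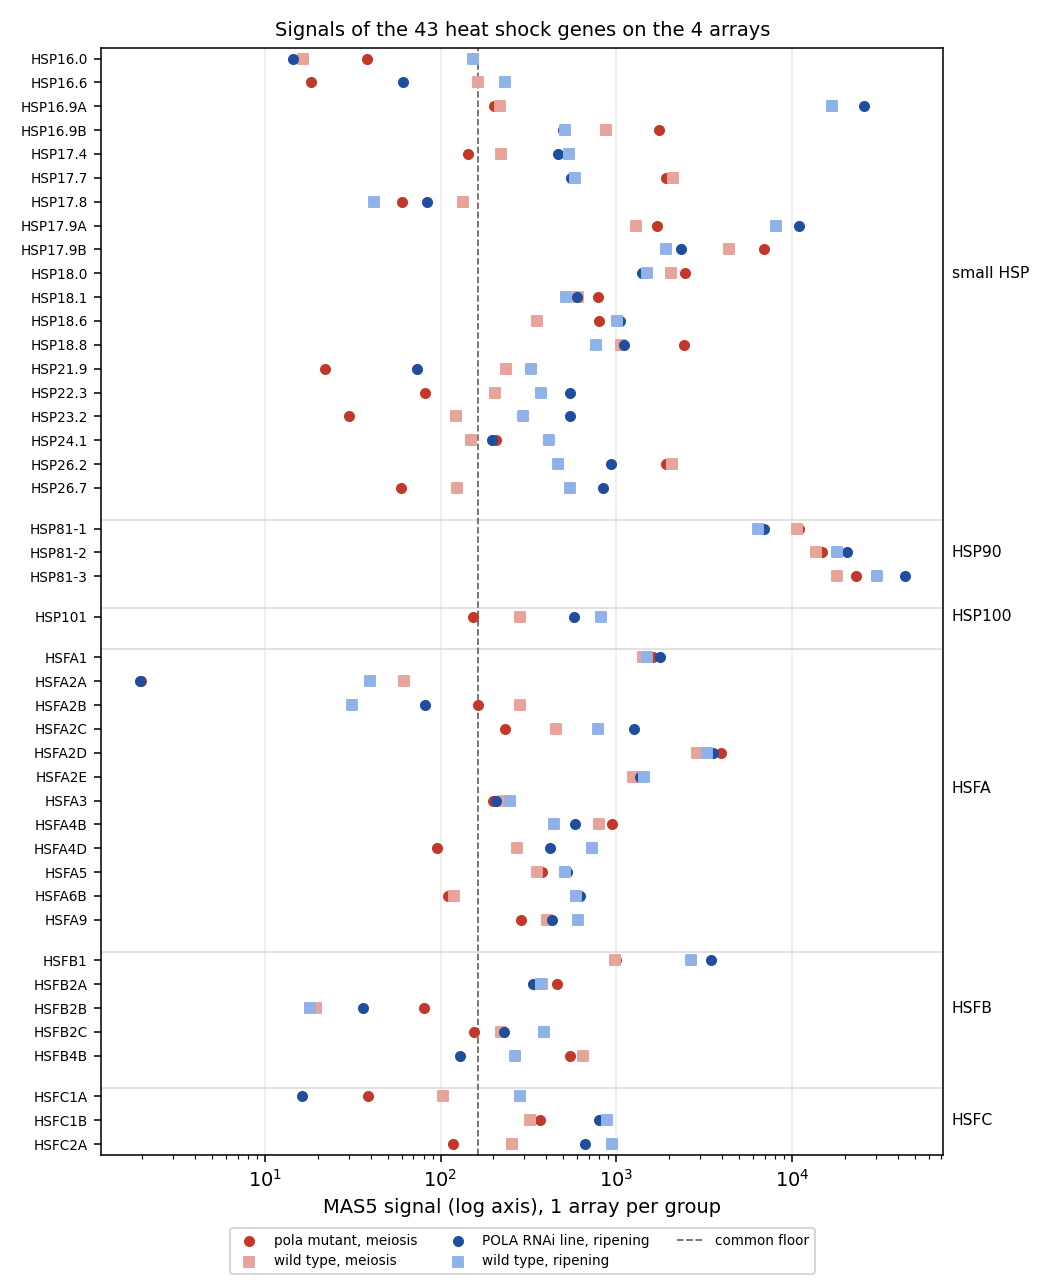
MAS5 signals of the 43 heat shock genes on a log axis, 1 row per gene by class, with 1 symbol per array (circles for the pola mutant and the RNAi line, squares for wild type; red for meiosis, blue for ripening) and the common floor of 163 as a dashed line. The blue symbols of HSP16.9A, at 25710 and 16925, lie far right of its red ones, at 201 and 218, while HSFA1 and HSFA2E have all 4 symbols close together.

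More heat shock genes passed 2-fold between stages than between genotypes, as was also the case over all genes. Of 40 kept members, 14 (35%) were past 2-fold higher in wild type at ripening than at meiosis, against 15.4% of all genes kept. Lower were 6 (15%), against 16.4%. At a 4-fold threshold 3 (7.5%) were higher, against 6.59%, and 2 (5%) lower, against 5.78%, close to the shares of all genes. In the mutant, 3 of 38 kept members (7.89%) were higher than in wild type, against 2.26% of all genes, and 4 (10.5%) were lower, against 4.34%. In the RNAi line, none of 40 was higher, against 3.63% of all genes, and 3 (7.5%) were lower, against 7.36%, close to the share of all genes. The median log2 ratio of the kept members was 0.47 for ripening over meiosis (-0.01 over all genes), 0.03 for mutant over wild type (0.05 over all genes) and 0.07 for RNAi line over wild type (0.09 over all genes). The dimmer signal was below the floor in 7 of the 20 stage differences, 5 of the 7 in the mutant and all 3 in the RNAi line. In all, 25 members passed 2-fold in at least 1 comparison and 18 in none. The stage comparison uses the wild-type array of each genotype comparison, so the 3 comparisons are not independent.

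**Figure D2:**
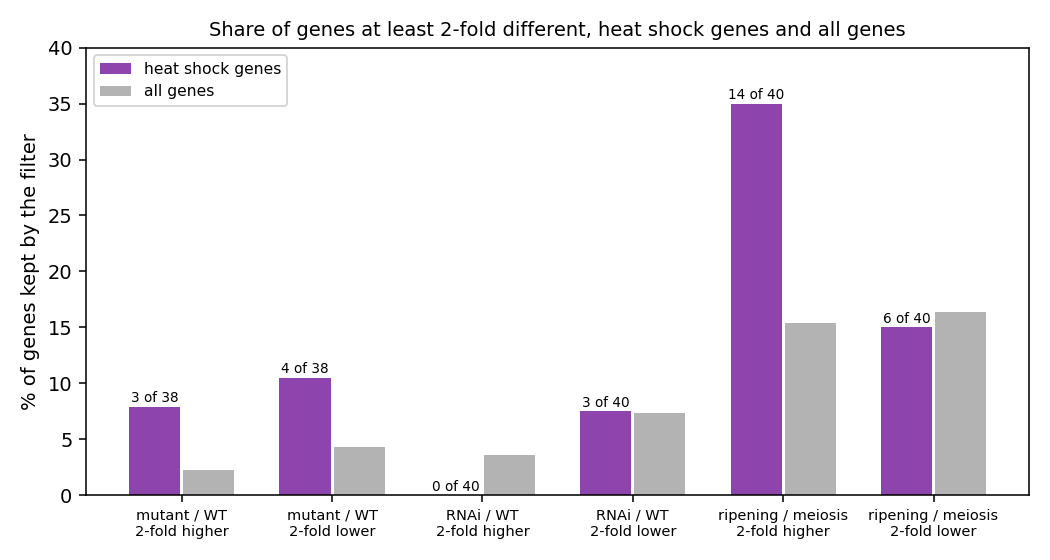
Percent of kept genes past 2-fold, higher or lower, in each comparison, for the heat shock genes (purple, with their counts) and for all genes (grey). The tallest purple bar, 14 of 40 heat shock genes higher at ripening than at meiosis, stands at 35% beside 15.4% of all genes.

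Ripening was set against meiosis in WT panicles to show how the heat shock genes differ between the stages at which the RNAi line and the mutant were sampled. Among small HSPs, 7 were higher at ripening and 4 lower, of 18 kept. HSP16.9A, a cytosolic small HSP of class I, read 25710 in RNAi and 16925 in WT panicles at ripening, against 201 in mutant and 218 in WT panicles at meiosis. Both ripening arrays were far above both meiotic arrays, and the log2 ratio of ripening over meiosis in wild type was 6.13, or 6.28 with the floor. Its gene entry also lists the name HSP16.9B, which the neighbouring gene carries as its symbol. HSP17.9A, also of class I, read 10904 in RNAi and 8063 in WT panicles at ripening, against 1705 in mutant and 1299 in WT panicles at meiosis. Its stage ratio was 2.61, with the ripening arrays again above the meiotic ones. HSP26.7, a small HSP of the chloroplast, read 843 in RNAi and 547 in WT panicles at ripening, against 59.2 in mutant and 125 in WT panicles at meiosis. The meiotic signals were below the common floor, so the gene was at least 3.35-fold higher at ripening in wild type, with a log2 ratio of 1.94.

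The other 4 small HSPs higher at ripening had smaller ratios. HSP18.6 read 1047 in RNAi and 1015 in WT panicles at ripening, against 796 in mutant and 354 in WT panicles at meiosis. HSP17.4, of class I, had 464 in RNAi and 536 in WT panicles at ripening, and 144 in mutant and 221 in WT panicles at meiosis. In both genes the wild-type array at ripening exceeded that at meiosis by more than 2-fold, with log2 ratios of 1.46 and 1.19, and in HSP18.6 the mutant array lay close to the ripening ones. HSP24.1 read 196 in RNAi and 413 in WT panicles at ripening, against 207 in mutant and 150 in WT panicles at meiosis. Here wild type at ripening stood alone above the other 3 arrays, and the ripening and meiotic arrays overlapped; the stage ratio was 1.34, at least 2.53-fold. HSP23.2 read 546 in RNAi and 295 in WT panicles at ripening, and 30.2 in mutant and 122 in WT panicles at meiosis. Its ratio of 1.13 shrank to 0.85, under 2-fold, with the floor.

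Of the 4 small HSPs lower at ripening, 3 were bright on all arrays. HSP17.7, of class I, read 554 in RNAi and 579 in WT panicles at ripening, against 1926 in mutant and 2088 in WT panicles at meiosis, a stage ratio of -1.81. HSP26.2 read 937 in RNAi and 468 in WT panicles at ripening, and 1911 in mutant and 2070 in WT panicles at meiosis, with a ratio of -2.09. Its only probe set is of a type that the array's naming marks as able to bind several transcripts. HSP17.9B read 2344 in RNAi and 1925 in WT panicles at ripening, and 6943 in mutant and 4366 in WT panicles at meiosis, with a ratio of -1.17. In all 3 genes both ripening arrays were below both meiotic arrays. HSP17.8 was dim, with 83.7 in RNAi and 41.7 in WT panicles at ripening, and 60.7 in mutant and 135 in WT panicles at meiosis. Its ratio of -1.28 became 0.00 with the floor, since all 4 signals lie below it.

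Small HSP genes grouped on a chromosome differed in their stage ratios. On chromosome 1 the gene reference, assembly ASM3414082v1, places HSP16.6, HSP17.9B, HSP16.9C, HSP16.9A and HSP16.9B in a row with 0 protein-coding genes between them. Within this row HSP16.9A was higher at ripening (6.13) and HSP17.9B lower (-1.17). HSP16.9B read 498 in RNAi and 513 in WT panicles at ripening, against 1742 in mutant and 878 in WT panicles at meiosis. Its ripening arrays were below the meiotic ones, with a stage ratio of -0.75, under 2-fold. On chromosome 3 HSP17.4, HSP18.1 and HSP17.7 are adjacent, and HSP17.9A precedes them with 4 genes between. In that group HSP17.9A (2.61) and HSP17.4 (1.19) were higher at ripening and HSP17.7 (-1.81) lower, while HSP18.1 read 595 in RNAi and 514 in WT panicles at ripening, against 789 in mutant and 608 in WT panicles at meiosis, a stage ratio of -0.23. No directly adjacent measured pair passed 2-fold in opposite directions. The class I genes are similar in sequence, the probe sequences were not used here, and the part of cross-hybridisation between copies was not tested.

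**Figure D3:**
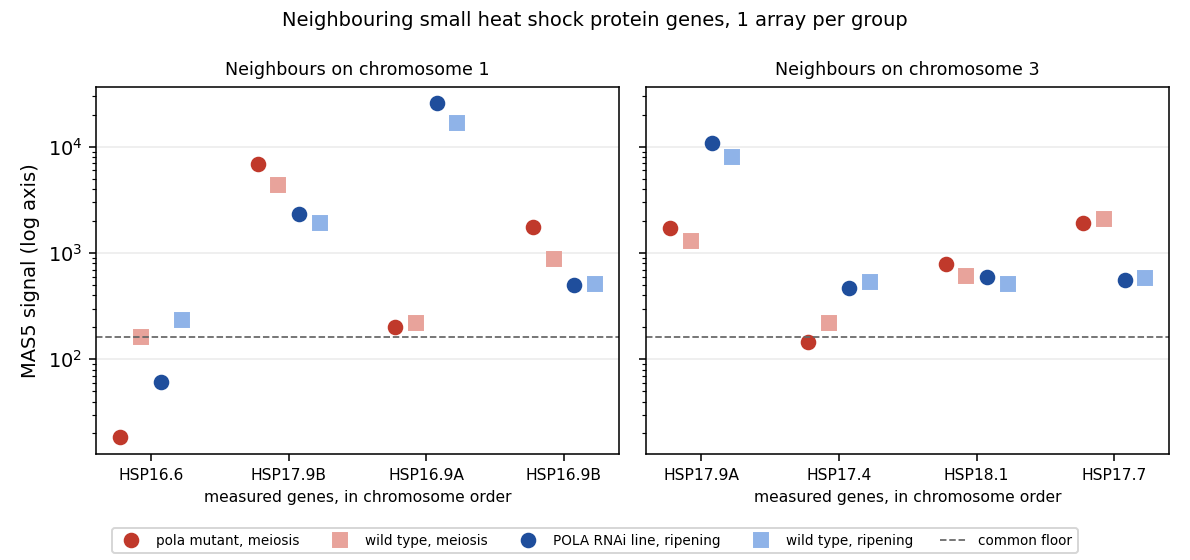
MAS5 signals on a log axis of the measured small HSP genes that neighbour each other on chromosome 1 (left) and chromosome 3 (right), in chromosome order, with 1 symbol per array and the common floor dashed. HSP16.9A and HSP17.9A have their ripening arrays (blue) above the meiotic ones (red), whereas HSP17.9B, HSP16.9B and HSP17.7 have them below.

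The HSP90 and HSP100 chaperones differed between stages by less than the leading small HSPs. HSP81-3 read 44016 in RNAi and 30359 in WT panicles at ripening, against 23042 in mutant and 17975 in WT panicles at meiosis. Its chromosome 9 neighbour HSP81-2, with 2 genes between them, read 20525 in RNAi and 17998 in WT panicles at ripening, against 14796 in mutant and 13769 in WT panicles at meiosis. In both, the ripening arrays were above the meiotic ones, with stage ratios of 0.76 and 0.39. HSP81-1, on chromosome 8, ran the other way, with 6964 in RNAi and 6362 in WT panicles at ripening, against 11008 in mutant and 10658 in WT panicles at meiosis, and a ratio of -0.74. With their brightest probe sets, none of the 3 HSP90 genes passed 2-fold in any comparison. HSP101, the disaggregase, read 575 in RNAi and 820 in WT panicles at ripening, against 153 in mutant and 282 in WT panicles at meiosis. Both ripening arrays were above both meiotic arrays, and the ratio was 1.47.

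Among the heat shock factors, all 3 measured genes of class C were more than 2-fold higher in wild type at ripening than at meiosis. HSFC2A read 668 in RNAi and 939 in WT panicles at ripening, against 118 in mutant and 255 in WT panicles at meiosis, and had a stage ratio of 1.79. HSFC1B read 802 in RNAi and 888 in WT panicles at ripening, against 368 in mutant and 324 in WT panicles at meiosis, and its ratio was 1.39. For these 2 genes the ripening arrays did not overlap the meiotic ones. HSFC1A was dim on 3 arrays, with 16.3 in RNAi and 283 in WT panicles at ripening, and 38.6 in mutant and 103 in WT panicles at meiosis. Its ratio of 1.28 was under 2-fold with the floor, at 0.79, and WT at ripening was the only array above the floor.

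In class A, 2 factors were higher at ripening and 1 lower, of 11 kept. HSFA6B read 623 in RNAi and 587 in WT panicles at ripening, against 110 in mutant and 119 in WT panicles at meiosis. Within each stage the arrays lay close together, and in wild type the gene was at least 3.59-fold higher at ripening, with a ratio of 2.10. HSFA4D, the factor mutated in the rice lesion-mimic mutant spotted leaf 7, read 422 in RNAi and 731 in WT panicles at ripening, and 94.9 in mutant and 272 in WT panicles at meiosis. Its stage ratio was 1.35, with wild type the brighter array of each stage. HSFA2B read 82.0 in RNAi and 31.4 in WT panicles at ripening, against 162 in mutant and 282 in WT panicles at meiosis. It was lower at ripening with a ratio of -2.48, at least 1.72-fold with the floor, which is under the 2-fold threshold.

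Class B held 1 factor on each side, of 4 kept. HSFB1 read 3452 in RNAi and 2661 in WT panicles at ripening, against 989 in mutant and 977 in WT panicles at meiosis. The meiotic arrays were nearly equal and both ripening arrays were above them, with a stage ratio of 1.42. HSFB4B, whose Arabidopsis relative HSFB4 acts in root patterning, read 129 in RNAi and 264 in WT panicles at ripening, against 548 in mutant and 646 in WT panicles at meiosis. Both ripening arrays were below the meiotic arrays, with a ratio of -1.22.

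Several class A factors stayed under 2-fold between the stages. HSFA1, the counterpart in name of the tomato master regulator HSFA1, read 1777 in RNAi and 1489 in WT panicles at ripening, against 1617 in mutant and 1413 in WT panicles at meiosis. HSFA2E read 1357 in RNAi and 1437 in WT panicles at ripening, against 1302 in mutant and 1246 in WT panicles at meiosis. Their stage ratios were 0.07 and 0.20. HSFA9, whose Arabidopsis counterpart in name acts in seed maturation, read 433 in RNAi and 607 in WT panicles at ripening, against 288 in mutant and 402 in WT panicles at meiosis, a stage ratio of 0.57. HSFA2D read 3550 in RNAi and 3259 in WT panicles at ripening, against 3932 in mutant and 2881 in WT panicles at meiosis. The gene entries of HSFA2C and HSFA2D also carry the names of an acireductone dioxygenase, an enzyme of methionine salvage, so which transcript their brightest probe sets measure is not settled. A second probe set of HSFA2D, from a numbered rice HSF record, read 79.7 in RNAi and 117 in WT panicles at ripening, against 192 in mutant and 156 in WT panicles at meiosis, and neither probe set passed 2-fold in any comparison.

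With signals below the floor raised to it, both ripening arrays were above both meiotic arrays for 20 of the 43 genes (46.5%), against 29.2% of all genes, and below both for 10 (23.3%), against 31.1%. By class, the ripening arrays were above for 7 small HSPs, 2 HSP90 genes, HSP101, 6 HSFs of class A, 2 of class B and 2 of class C. They were below for 6 small HSPs, 1 HSP90 gene, 1 HSF of class A and 2 of class B. HSFA2C was counted as above by its brightest probe set, and HSP18.0 and HSP18.1 as below by theirs. Another probe set of HSP18.0 had the ripening arrays above the meiotic ones. It read 1389 in RNAi and 911 in WT panicles at ripening, against 577 in mutant and 457 in WT panicles at meiosis. The remaining one overlapped between the stages. For HSP18.1 the nearest arrays were 595 in RNAi at ripening and 608 in WT at meiosis. Its other probe set overlapped, with a stage ratio of 0.19. Of the 14 genes 2-fold higher at ripening in wild type, 12 had both ripening arrays above both meiotic ones, the exceptions being HSP24.1 and HSFC1A. Of the 6 lower genes, 4 had both below, the exceptions being HSP17.8 and HSFA2B. Over all genes past 2-fold the same held for 84.4% of the higher and 90.7% of the lower ones. The RNAi line and the mutant differ in genotype as well as stage, so this count adds arrays of another genotype and not replicates.

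In pola mutant panicles at meiosis, 7 heat shock genes passed the 2-fold threshold against WT with the pseudocount. The genes higher in the mutant were HSP18.6, HSP18.8 and HSFB2B, and the lower ones HSP16.6, HSP21.9, HSP22.3 and HSFA4D. HSP18.8 read 2435 in mutant and 1070 in WT panicles at meiosis, and 1105 in RNAi and 763 in WT panicles at ripening. The mutant array was the highest of the 4, and the log2 ratio of mutant over wild type was 1.17, or 1.19 with the floor. This gene has a single probe set, of a type that the array's naming marks as able to bind several transcripts. HSP18.6, given above, had a ratio of 1.12, or 1.17 with the floor. Its other 2 probe sets ran the opposite way, with 353 in mutant and 455 in WT panicles for one, a ratio of -0.35, and 15.8 in mutant and 76.4 in WT panicles for the other, a ratio of -1.35. The mean over its probe sets gave -0.19, so the direction for HSP18.6 rests on the choice of probe set. HSFB2B, a class B factor, read 80.9 in mutant and 19.4 in WT panicles at meiosis, and 36.2 in RNAi and 18.1 in WT panicles at ripening. All 4 signals are below the floor, and the ratio of 1.28 becomes 0.00 with it. The second probe set of HSFB2B ran the opposite way, with 28.9 in mutant and 52.7 in WT panicles, a ratio of -0.54. The mean over its probe sets gave 0.37.

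All 4 genes lower in the mutant read below the floor there. HSP21.9 read 22.1 in mutant and 234 in WT panicles at meiosis, a log2 ratio of -2.50. With the floor it was at least 1.43-fold lower. HSP16.6 read 18.4 in mutant and 163 in WT panicles at meiosis, a ratio of -2.15, and both signals lie below the floor, so no fold can be given. HSFA4D, with 94.9 in mutant and 272 in WT panicles, had a ratio of -1.32 and was at least 1.67-fold lower. HSP22.3 read 81.1 in mutant and 204 in WT panicles at meiosis, and 544 in RNAi and 374 in WT panicles at ripening. Its mutant ratio was -1.12, at least 1.25-fold lower, while in the RNAi line its ratio was 0.51; the difference between these ratios was not tested. None of the 4 was 2-fold lower with the floor. Just under 2-fold in the mutant were HSP16.9B at 0.97 and HSFC2A at -0.98, the second at -0.64 with the floor. The lower median signal and the higher 3' to 5' ratios of the mutant array stand beside these results, and their part in them was not tested.

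Scaling raised the share of all genes higher in the mutant, 2.26% before it, while the count of higher members, 3 (7.89%), stayed or became 4. The lower shares, 10.5% of members and 4.34% of all genes before scaling, both fell. Over all probe sets the median log2 ratio of mutant over wild type was -0.31. Relative to that median 4 members were higher (10.5%, against 5.06% of all genes) and 3 lower (7.89%, against 2.66%). Quantile normalization gave 3 higher (7.69%, against 4.66%) and 2 lower (5.13%, against 1.39%). Loess centring gave 3 higher (7.89%, against 5.1%) and 2 lower (5.26%, against 1.51%). Of the 8 alternatives that act on single genes, 6 are the 3 scalings, both other pseudocounts and the floor, and 2 are other choices of probe set. HSP18.8 was the only gene of this comparison past 2-fold under all of them, but with a single probe set only the 6 could move it. Tapetum markers summed to 86979 in mutant and 59662 in WT panicles and meiocyte markers to 3026 in mutant and 3837 in WT panicles, and their part in the mutant ratios was not tested.

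In ripening panicles of the POLA RNAi line, 3 heat shock genes, HSP16.6, HSP21.9 and HSFC1A, passed the 2-fold threshold as lower than in WT with the pseudocount. HSFC1A, with 16.3 in RNAi and 283 in WT panicles at ripening, had a log2 ratio of -2.95 and was at least 1.73-fold lower. HSP21.9 read 73.5 in RNAi and 327 in WT panicles at ripening, a ratio of -1.86, and was at least 2.0-fold lower. HSP16.6 read 60.8 in RNAi and 232 in WT panicles at ripening, a ratio of -1.60, and was at least 1.42-fold lower. In all 3 genes the RNAi signal was below the floor and the wild-type signal above it. HSP21.9 and HSP16.6 thus read lower in the mutant and in the RNAi line than in the wild type of the same stage, on the 2 arrays with the lower median signals, and the part of those medians was not tested. HSP21.9 has a second, dimmer probe set, which read 100 in RNAi and 67.2 in WT panicles at ripening, a ratio of 0.45.

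Several genes lay near the threshold in the RNAi line. HSP26.2, with 937 in RNAi and 468 in WT panicles, had a ratio of 0.97, or 1.0 with the floor, where it passed. HSP24.1, with 196 in RNAi and 413 in WT panicles, both above the floor, had -0.99, or -1.07 with the floor, where it passed as lower. HSFB4B, with 129 in RNAi and 264 in WT panicles, had -0.92, or -0.69 with the floor. The second probe set of HSFB4B ran the opposite way, with 154 in RNAi and 114 in WT panicles, a ratio of 0.37. HSFA2B had 0.94, from the dim signals given above, and 0.00 with the floor. Among genes higher at ripening, HSP16.9A had an RNAi ratio of 0.60, HSP17.9A of 0.43 and HSFB1 of 0.37. Endosperm markers, at 265549 in RNAi and 201156 in WT panicles, were higher in the RNAi line as well, and their part in these ratios was not tested.

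In the RNAi line too, scaling moved the counts of members and of all genes. The median log2 ratio over all probe sets was -0.40, and relative to it 7 of the 40 members were higher (17.5%, against 9.81% of all genes) and 3 lower (7.5%, against 4.1%). Quantile normalization gave 4 higher (10%, against 8.05%) and 2 lower (5%, against 3.41%). Loess centring gave 3 higher (7.5%, against 7.38%) and 2 lower (5%, against 3.11%). No member was past 2-fold in the RNAi line under all 8 alternatives.

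**Figure D4:**
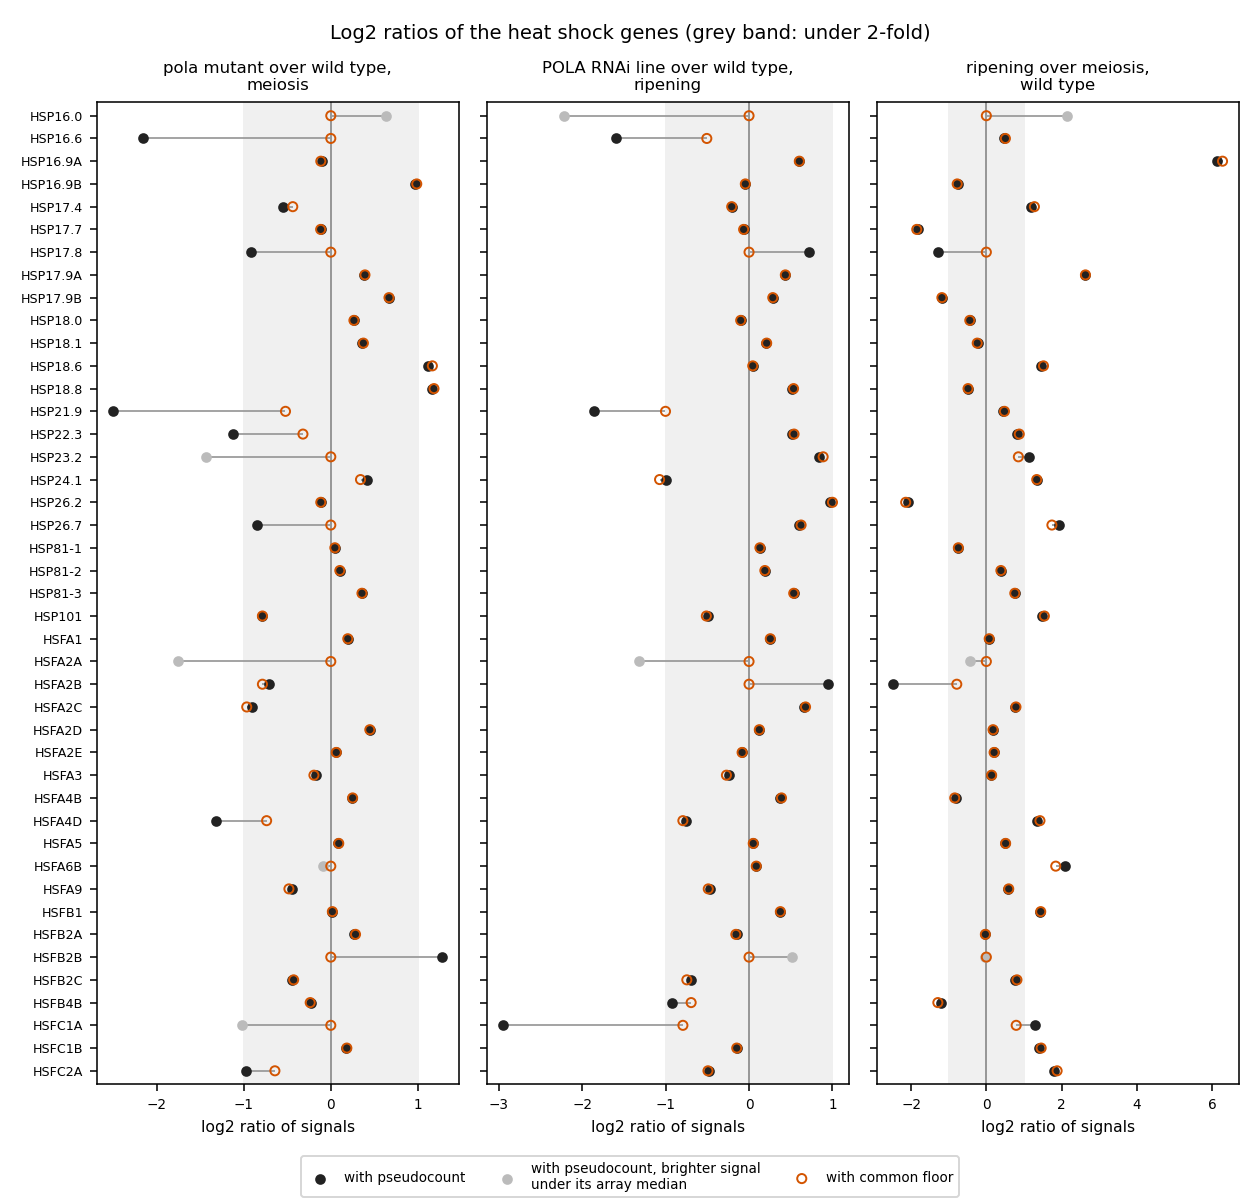
Log2 ratios of the 43 heat shock genes in the 3 comparisons, with the pseudocount (black; grey where the brighter signal was under its array median) and with the common floor (open circles), joined by a line for each gene; the grey band marks differences under 2-fold. The negative ratios of HSP16.6 and HSP21.9 in the mutant (-2.15 and -2.50) shrink to 0.00 and -0.52 with the floor, while the stage ratio of HSP16.9A stays at 6.13 and 6.28.

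In the stage comparison more members kept a 2-fold difference. Past 2-fold under all 8 alternatives were 10 of the 14 genes higher at ripening, namely HSP16.9A, HSP17.9A, HSP24.1, HSP26.7, HSP101, HSFA4D, HSFA6B, HSFB1, HSFC1B and HSFC2A, and 3 of the 6 lower ones, HSP17.7, HSP17.9B and HSP26.2. All but HSP17.7 of these 13 have 1 probe set, so that only 6 alternatives could move them. HSP18.6 and HSFB4B, with several, were under 2-fold only with another choice of probe set, at 0.74 and -0.88. Relative to the median of 0.20 over all probe sets, 12 members were higher at ripening (30%, against 12.6% of all genes) and 7 lower (17.5%, against 20.3%). The 18 members counted in no comparison included 9 HSFs of class A and all 3 HSP90 genes. Among the 16 of them kept, mutant ratios ran from -0.90 to 0.97, RNAi ratios from -0.69 to 0.66 and stage ratios from -0.81 to 0.76. Those not yet given had stage ratios of -0.43 for HSP18.0, a small HSP of class II, 0.76 for HSFA2C, 0.13 for HSFA3, -0.81 for HSFA4B, 0.49 for HSFA5, -0.02 for HSFB2A and 0.75 for HSFB2C. The probe set of HSFA2C from its numbered HSF record gave -0.11, with 115 in WT panicles at ripening and 127 at meiosis. The other probe sets of HSP18.0 gave -0.15 and 0.96, so its direction rests on the choice of probe set. Those of HSFB2C, below the floor on all arrays, gave -0.78 and 0.37. With the mean over probe sets HSP81-3 passed 2-fold for the stage, at 1.02. The remaining 2, HSP16.0 and HSFA2A, read below the array median on all 4 arrays and were left out by the filter, not for small ratios. HSP16.0 read 38.3 in mutant and 16.4 in WT panicles at meiosis, and 14.4 in RNAi and 152 in WT panicles at ripening, and HSFA2A read 1.97 in mutant and 62.1 in WT panicles at meiosis, and 1.94 in RNAi and 39.9 in WT panicles at ripening.

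Probe sets of the same gene gave a check of the measurement in 14 genes. The HSP90 gene HSP81-3 had 5, of which the 3 brightest gave stage ratios of 0.76, 0.66 and 0.82, and the 2 dimmest gave 0.38 and 2.50. Those that gave 0.76 and 0.66 are of types that the array's naming marks as able to bind several transcripts. The part of cross-hybridisation between HSP90 genes was not tested. The second probe set of HSP81-1 had a ratio of -1.10, in the direction of the brightest one (-0.74). That of HSFB4B had -0.88, against -1.22 for the brightest. The other probe sets of HSP18.6 gave 0.07 and 0.70 for the stage, against 1.46. The second probe set of HSP17.7, with 15.5 in RNAi and 45.9 in WT panicles at ripening, and 20.1 in mutant and 76.6 in WT panicles at meiosis, was dim on all arrays and gave -0.53. The second probe set of HSFB2A, a class B factor, read 109 in RNAi and 38.9 in WT panicles at ripening, against 218 in mutant and 201 in WT panicles at meiosis. It gave a stage ratio of -1.85, against -0.02 for the brightest one.

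**Figure D5:**
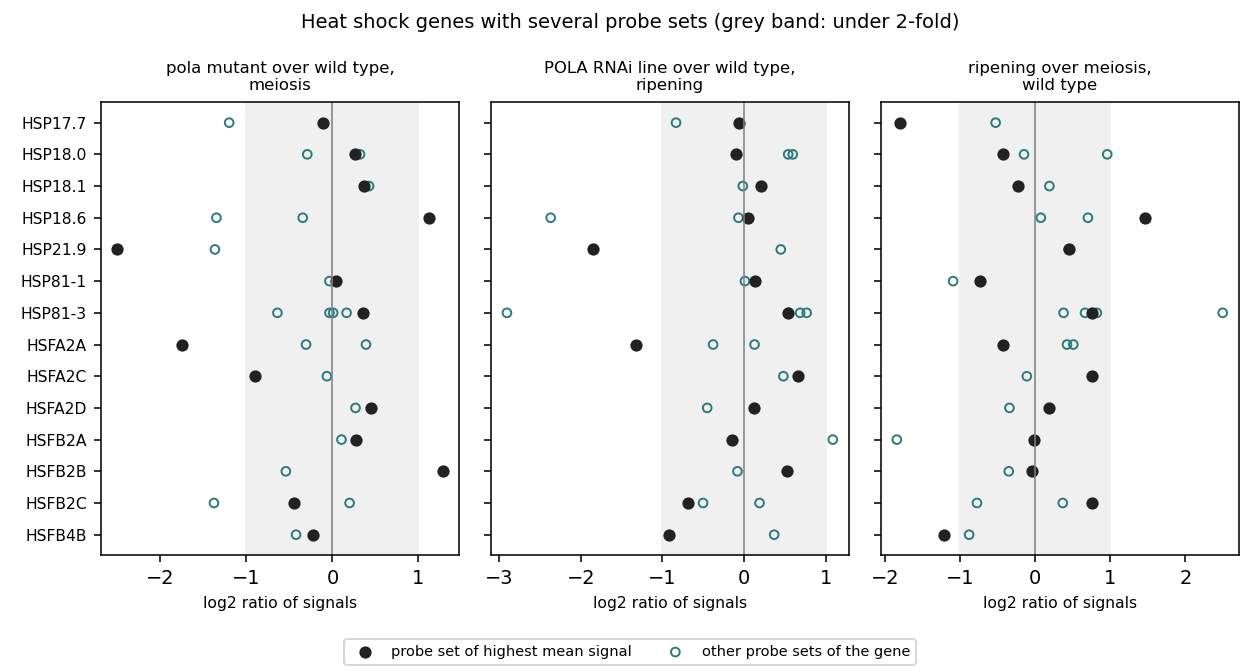
Log2 ratios of the 14 heat shock genes with several probe sets in the 3 comparisons, with the probe set of highest mean signal in black and the others as open circles; the grey band marks differences under 2-fold. For HSP18.6 in the mutant the black point lies at 1.12 and the open ones at -0.35 and -1.35, whereas the points of HSFB4B for the stage lie together at -1.22 and -0.88.

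Of the partner genes of the heat shock response that the name rule did not take, 23 were measured and could be found by symbol: J-domain proteins, which deliver clients to HSP70, Clp proteins, the luminal HSP70 BiP, calreticulin, the HSP90 co-chaperone SGT1 and ascorbate peroxidases. Chaperonins, HSP70 nucleotide exchange factors, the HSP70-HSP90 organizing protein and galactinol synthases were not analysed here. In the mutant, 0 of 23 kept genes passed 2-fold in either direction, against 2.26% of all genes higher and 4.34% lower. In the RNAi line, 0 of 22 were higher, against 3.63% of all genes, and 1 was lower, against 7.36%. The lower one was BIP4, with 8.70 in RNAi and 187 in WT panicles, a log2 ratio of -2.71 that became -0.20 with the floor. At ripening over meiosis in wild type, 3 of 22 were higher and 1 lower, against 15.4% and 16.4% of all genes. The higher ones were CLPD1 at 2.06, CLPC2 at 1.55 and APX8 at 1.0, and the lower one was the cytosolic ascorbate peroxidase APX1 at -1.32. CLPD1 read 1325 in RNAi and 1187 in WT panicles at ripening, against 399 in mutant and 267 in WT panicles at meiosis. CLPB-C, a chloroplast relative of HSP101, read 1910 in RNAi and 1519 in WT panicles at ripening, against 926 in mutant and 854 in WT panicles at meiosis, a stage ratio of 0.81. BIP1 read 18680 in RNAi and 13351 in WT panicles at ripening, against 8341 in mutant and 8080 in WT panicles at meiosis, a ratio of 0.72. Other partners had negative stage ratios, among them BIP4 at -0.47, CRT1 at -0.46 and OsSGT1 at -0.43.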

How the data were processed

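Biotin-labelled panicle RNA of 4 rice groups was measured on 1 array each. The authors deposited 1 intensity per probe set, named as MAS5 in the submitters' processing notes and linear by its range. No MAS5 version or detection call is given in the sources used here. With so few arrays the precision of each value is unknown.

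The 187 control probe sets were left out, and 22436 of the other 57194 were paired with exactly 1 gene. Names and neighbours came from assembly ASM3414082v1. Members, lists and comparisons were chosen with earlier results of these data known. Signals on all arrays are given for members 2-fold different in at least 1 comparison and for the member of highest mean signal in each class, a rule of choice only; HSP16.0, HSP16.9B, HSP18.1, HSP81-1, HSP81-2, HSFA1, HSFA2A, HSFA2E, HSFA9, CLPB-C and BIP1 were added after their values were seen. The partner genes had been defined by gene descriptions and were translated to symbols, since the reference table holds none. The alternatives were 12 planned settings of scaling, pseudocount, filter, threshold and probe set, and 2 added after the data were seen: HSFA2C and HSFA2D by their numbered HSF record, and the order of the ripening against the meiotic arrays with the floor. The steps were tested on simulated data, with mutant and RNAi arrays made from the wild-type ones and changes only in probe sets bright on all arrays. The simulation therefore did not cover the differences in dim signals between the arrays. Python 3.11.15, numpy 2.4.6, pandas 2.3.3, statsmodels 0.14.6 and matplotlib 3.10.9 were used.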

Additional observations from a re-analysis of the deposited data

Results flagged for a closer look

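HSP22.3, a small heat shock protein gene, had log2 ratios of opposite sign in the genotype comparisons, and passed 2-fold in the mutant only. Its log2 ratio was -1.12 for mutant over wild type at meiosis, with 81.1 in mutant and 204 in WT panicles. It was 0.51 for RNAi line over wild type at ripening, with 544 in RNAi and 374 in WT panicles. Each side is 1 array, and the difference between the ratios was not tested. With the common floor the ratios were -0.32 and 0.54. Opposite signs were not particular to HSP22.3 among the 43 members. The gap was wider in HSP16.0 (0.63 in the mutant and -2.22 in the RNAi line, kept in neither). It was also wider in HSP23.2 (-1.44 in the mutant, where it was not kept, and 0.84 in the RNAi line). HSFA2B too had a wider gap (-0.72 in the mutant and 0.94 in the RNAi line).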

How the results depend on the processing

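No paired analysis was possible because each group has 1 array. No difference has a replicate check, and signals under the common floor of 163 limit the folds of dim genes. In the mutant, the count of members past 2-fold higher than wild type, 3, became 1 with the median signal (103) as pseudocount. It became 0 at a 4-fold threshold and 1 with the mean over probe sets. The shares of all genes were then 0.881%, 0.196% and 2.03%. The count of lower members, 4, became 2 with quantile normalization, loess centring, the pseudocount of 103 and a 4-fold threshold. The shares of all genes were then 1.39%, 1.51%, 1.72% and 0.957%. The lower count became 7 with a pseudocount of 5.85 or no filter, beside 5.13% and 6.86% of all genes. It became 0 with the common floor or a filter at the 75th percentile, beside 1.03% and 0.651% of all genes. The filter at the 75th percentile kept 18 members in the mutant comparison and no filter 43, instead of 38. In the RNAi line, the count of higher members, 0, became 7 relative to the median ratio, 4 with quantile normalization and 3 with loess centring. The shares of all genes were then 9.81%, 8.05% and 7.38%. The higher count became 1 with the pseudocount of 5.85, with the floor, and with no pseudocount, beside 4.17%, 1.9% and 1.56% of all genes. The count of lower members, 3, became 5 with the pseudocount of 5.85 or no filter, beside 8.19% and 9.94% of all genes. It became 0 with the filter at the 75th percentile and 1 at 4-fold, beside 2.15% and 1.65%. Here the filter at the 75th percentile kept 29 members and no filter 43, instead of 40. At ripening over meiosis the counts of 14 and 6 became 3 and 2 at 4-fold and stayed within 1.5 times under the other settings. The 4-fold shares, 7.5% higher and 5% lower, were close to those of all genes, 6.59% and 5.78%. HSP18.6 was reversed in the mutant, from 1.12 to -0.19, with the mean over probe sets. The causes were not tested. Taking HSFA2C and HSFA2D by their numbered record, added after the data were seen, left every count of 2-fold members as it was.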
